A study of Mus musculus with 36 samples.

Results

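Ventricles of mouse embryos that lost Efnb2, the gene for the ephrin-B2 ligand, from the endocardial lineage were compared with WT ventricles at E16.5. All 4 mutant libraries (genotype Efnb2Flox;Nfatc1-Cre) and all 4 WT libraries of this experiment were used, 8 of the 36 libraries of the series, and each was made from the ventricles of 1 embryo. The mutants carry floxed Efnb2 alleles and a Cre recombinase driven by the Nfatc1 locus, which is active in endocardium, in the sinus venosus and in the vessels that derive from them, so that Efnb2 made by other cells is left in place. The labels call the controls WT and give no alleles, and neither sex nor litter is given. Polyadenylated RNA was sequenced, and the table lists 13527 genes, of which 13455 have a symbol in the annotation used here. A level is given below as a normalized count, which is the read count of a gene scaled to a normalization-adjusted library size (CPM). Between 7827496 and 9890333 reads per library were assigned to genes, and any 2 libraries correlated at 0.982 to 0.988 on the log2 scale.

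Ephrin-B2 is a membrane-bound ligand on arterial endothelium, and its main vascular receptor, EphB4, marks veins. Contact between cells carrying the ligand and the receptor sends signals into both and keeps arterial and venous cells apart as a vessel plexus is remodelled. Efnb2 is a target of Notch signalling, the pathway through which the ligands Jag1 and Dll4 act in the endocardium and in coronary vessels. Where vessels fail to supply growing muscle, the hypoxia-inducible factors (HIF) raise genes for angiogenesis, glycolysis and reduced oxygen use. A list of HIF targets is among the gene lists described here, which were chosen with earlier results of these data known.

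Efnb2 was lower in every mutant than in any WT library, but the difference did not pass the test across all genes. The Efnb2 level in the mutants was 46.2, 48.4, 44.4 and 47.0, and in WT it was 58.6, 80.6, 76.04 and 55.1. The mutants lay within a narrow band, while WT 1 and WT 5 were well below WT 2 and WT 3. The mean mutant level was 68.8% of the WT mean, 46.5 ± 1.67 against 67.6 ± 12.6 (SD, n = 4 each), a log2 fold change of −0.52 with a standard error of 0.11 (95% interval −0.75 to −0.29, adjusted p = 0.297 by limma). The gene (ENSMUSG00000001300, GRCm38 chromosome 8, 8617434 to 8661242, minus strand) was counted over its whole length, so that reads of exons outside the floxed part and of cells without Cre both contribute. In whole ventricles, fewer cells of a type and less RNA per cell cannot be told apart, here or in any result below. Nfatc1, whose locus carries the Cre, was 31.2 to 37.2 in the mutants and 31.4 to 39.0 in WT (log2 fold change −0.14, adjusted p = 0.831), with overlapping groups.

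Of the other members of the ephrin system none passed the test. The 17 measured ephrins and Eph receptors had a median log2 fold change of −0.08, with 5 above 0 and 12 below, beside a median of −0.00 over all 13527 genes. Ephb4, the venous receptor, was 123 to 153 in the mutants and 125 to 143 in WT (log2 fold change 0.04, adjusted p = 0.950). Epha2, a receptor of A-type ephrins, was 14.5, 14.5, 12.3 and 11.3 in the mutants and 10.9, 10.6, 11.3 and 11.2 in WT (0.24, adjusted p = 0.775). Every mutant value of Epha2 was above the WT range, mutant 4 only just.

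**Figure D1:**
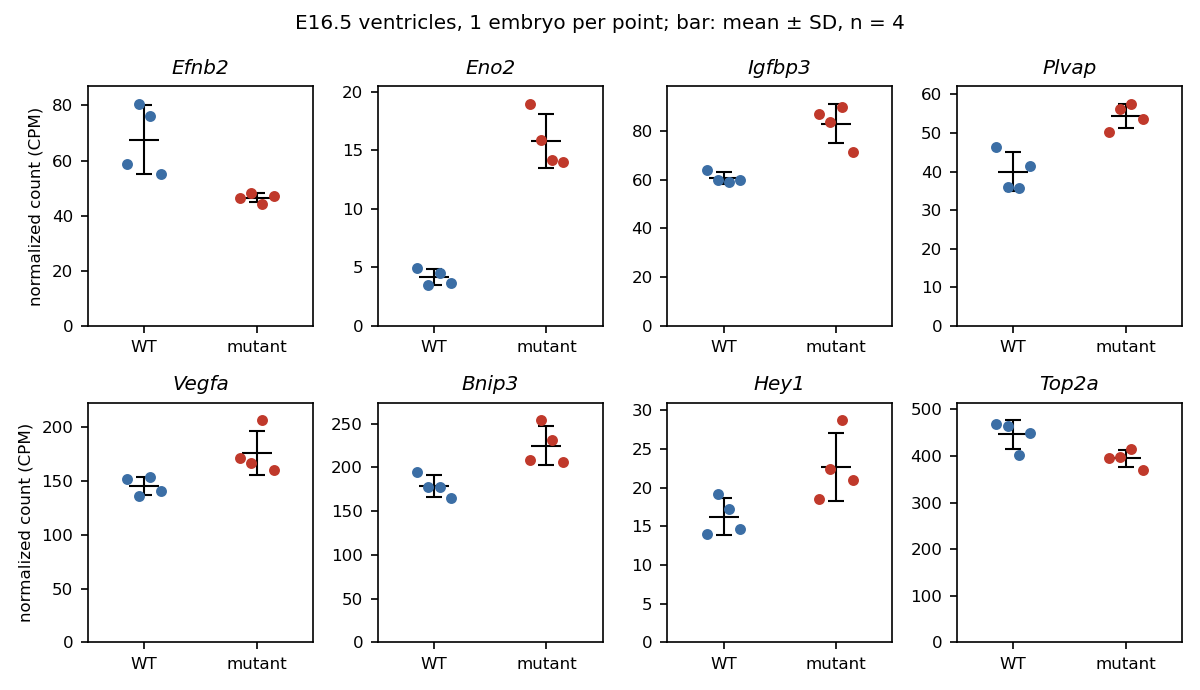
Normalized count (CPM, vertical axes from 0) of 8 genes in each library, with WT in blue, mutants in red, 1 embryo per point, and black bars for the mean ± SD of 4. The groups are apart for Efnb2, Eno2, Igfbp3, Plvap, Vegfa and Bnip3 and overlap for Hey1 and Top2a, and of these 8 genes Eno2 alone passed the test.

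In the mutants 4 genes rose and 0 fell at an adjusted p under 0.05 (0.0296% of the 13527 tested rose and 0.0% fell). At an unadjusted p under 0.05 there were 436 genes on the higher side and 422 on the lower side, 3.22% and 3.12% of the table and 6.34% together, and edgeR on the recovered reads also gave 4 rises and 0 falls. DESeq2 on the same reads called 16 higher and 9 lower, Efnb2 among the lower ones (log2 fold change −0.54, adjusted p = 0.00286). The 4 called genes were Eno2, Gm47854, Gm2574 and Gm3839. Of these, Eno2 follows from the rule for named genes, and the other 3 are named because of their values.

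Eno2 encodes the neuronal enolase, a glycolytic enzyme that other tissues make at a low level and a target of HIF. Its level was 18.96, 15.88, 14.15 and 13.99 in the mutants and 4.91, 3.50, 4.54 and 3.64 in WT. The lowest mutant was well above the highest WT library, and the mutant mean was 3.80 times the WT mean. The log2 fold change was 1.81 ± 0.14 (SE, adjusted p = 7.23e-05), and Eno2 was called in each of the 22 fits that were run. The gene (ENSMUSG00000004267) lies on chromosome 6 from 124760053 to 124769673 on the minus strand. Eno3, the muscle enolase, was 471 to 611 in the mutants and 496 to 590 in WT (log2 fold change −0.00, adjusted p = 0.999). Eno1, the ubiquitous enolase, was 773, 1144, 788 and 754 in the mutants and 1219, 1072, 1103 and 1116 in WT (−0.40, adjusted p = 0.631). Mutants 1, 3 and 4 were below all WT libraries for Eno1, while mutant 2 lay among them, and without mutant 2 Eno1 was called lower (−0.55, adjusted p = 0.001). Eno1 lies on chromosome 4, where mutant 2 was nearer to WT for several genes, as described at the end. The nearest annotated relative of the Eno2 transcript is Eno3, at 78.2% identity over 1274 bases. Of the 90 other genes that start within 5 Mb of Eno2, 0 were called, beside 0.0296% of all genes. At an unadjusted p under 0.05, 6 of the 90 were higher (6.67%, background 3.22%) and 6 lower (6.67%, background 3.12%).

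The other 3 rises share one property that the test did not use: all are gene models that resemble Gapdh, which encodes the glycolytic enzyme glyceraldehyde-3-phosphate dehydrogenase. Gm47854 (a lincRNA model on chromosome 9, 51621425 to 51655127) was 49.1, 47.9, 51.2 and 47.9 in the mutants, and in WT it had 0, 0, 0 and 1 reads. Gm2574 (a processed pseudogene on chromosome 3, 142962611 to 142963612) had 141, 95, 130 and 133 reads in the mutants and 0 in each WT library. Both had reads in every mutant and at most 1 read in any WT embryo. Strain background and litter are not in the labels, so an effect of the mutation and a difference in background between the groups cannot be told apart for the called genes. In the Jag1 experiment of the series, Gm47854 was at a mean of 16.3 in mutants and 21.9 in WT (log2 fold change −1.31, adjusted p = 0.418 by limma). Gm2574 was at a mean of 15.6 and 9.86 there, with a log2 fold change of −0.60 (adjusted p = 0.772 by limma). That fold change and the means point opposite ways, so Gm2574 varied widely between libraries of the same genotype. Both models were thus present in WT hearts of that experiment. With WT set to a floor of 3 reads per library, Gm47854 was at least 125-fold and Gm2574 at least 29.7-fold higher in the mutant with the lowest level. Gm3839 (a model on chromosome 14, 11280735 to 11356726) was 4.98, 5.65, 4.45 and 5.80 in the mutants and 2.23, 1.67, 1.28 and 1.18 in WT (log2 fold change 1.47 ± 0.19, SE, adjusted p = 0.0162). The Gm3839 call was lost without mutant 1, mutant 4, WT 2, WT 3 or WT 5 when each was left out in turn, with its direction kept.

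The likeness was read from alignments of the annotated transcripts. Gm2574 is 99.7% identical to Gapdh over all of its 1002 bases, Gm3839 is 99.1% identical over 1232 of 1712 bases, and Gm47854 holds 1282 bases that are 94.2% identical to Gapdh on the opposite strand. The stretch below, bases 153 to 242 of the Gapdh transcript, is shown because it lets the copies be told apart by a few letters. Capitals mark the bases that differ from Gapdh, and Gm47854 is written as the complement of its own strand.
Gapdh: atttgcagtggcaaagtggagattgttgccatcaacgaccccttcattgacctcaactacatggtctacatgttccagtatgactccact
Gm2574: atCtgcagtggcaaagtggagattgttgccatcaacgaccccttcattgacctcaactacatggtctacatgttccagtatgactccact
Gm3839: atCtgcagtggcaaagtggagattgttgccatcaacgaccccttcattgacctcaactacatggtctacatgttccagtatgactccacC
Gm47854: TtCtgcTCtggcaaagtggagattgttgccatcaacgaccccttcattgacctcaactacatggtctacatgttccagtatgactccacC
Over these 90 bases the 3 models differ from Gapdh at 1, 2 and 5 positions in the order shown. Reads of such sequences are shared out between copies by the counting program, so the levels of the 3 models are uncertain.

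Gapdh itself was 664, 629, 678 and 689 in the mutants and 711, 672, 721 and 747 in WT (log2 fold change −0.10, adjusted p = 0.805). The gene lies on chromosome 6 from 125161715 to 125166467, within 5 Mb of Eno2. There were 6 other genes in the data that had a transcript at least 90% identical to Gapdh over at least 500 bases, and summed they were 83.2, 78.15, 80.4 and 82.95 in the mutants and 16.2, 16.3, 15.6 and 12.9 in WT. Most of the WT sum came from Peli2, a protein-coding gene with 1075 aligned bases. It was 7.04 to 10.9 in the mutants and 8.56 to 10.8 in WT. The sum of Gapdh and these 6 genes was 707.5 to 772 in the mutants and 688 to 760 in WT. The groups overlapped for this sum, as they did for Gapdh alone. How the reads were shared between Gapdh and the genes that resemble it was not tested.

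**Figure D2:**
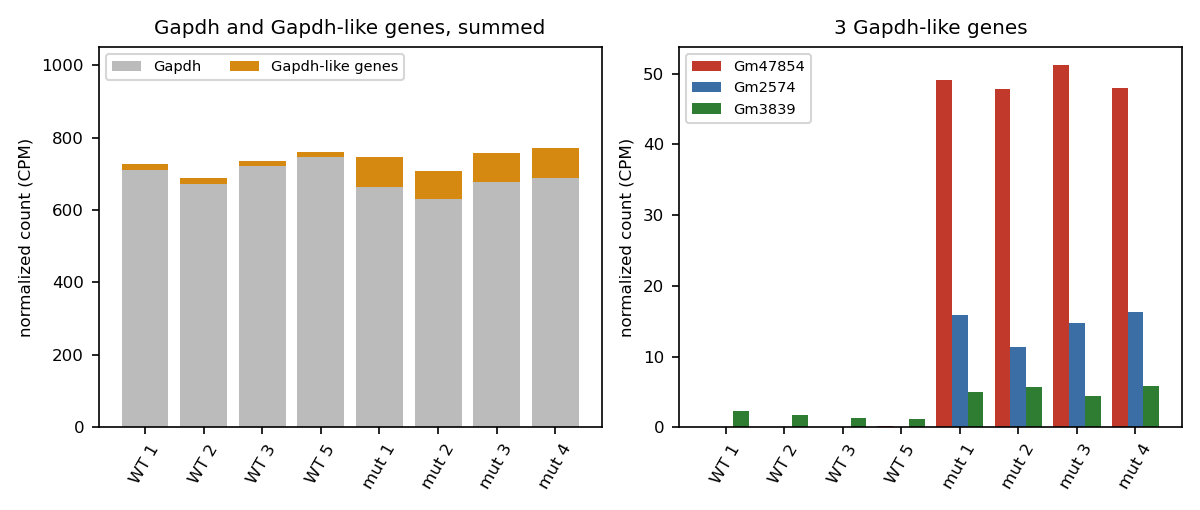
Left, normalized count (CPM) of Gapdh in grey and of the 6 Gapdh-like genes in orange, stacked, for each WT and mutant library, and right, the 3 called Gapdh-like genes on their own axis (CPM). The stacked total is 688 to 760 in WT and 707.5 to 772 in the mutants, while Gm47854 and Gm2574 are at or near 0 in all 4 WT libraries.

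Igfbp3 had the smallest adjusted p of the genes that were not called, and Plvap ranked further down. Igfbp3, which binds insulin-like growth factors, was chosen after its values were seen. Its level was 86.9, 83.7, 89.8 and 71.4 in the mutants and 64.0, 59.8, 58.8 and 59.8 in WT, and every mutant exceeded every WT library. The log2 fold change was 0.44 ± 0.07 (SE), with an adjusted p of 0.0762 that missed the threshold and of 7.93e-05 by DESeq2. Plvap, which forms the diaphragms of endothelial fenestrae and caveolae and marks endocardium, was 50.4, 56.3, 57.4 and 53.7 in the mutants and 46.4, 36.0, 35.9 and 41.5 in WT. The groups did not overlap for Plvap either (log2 fold change 0.45 ± 0.08, SE, adjusted p = 0.222, and 0.0037 by DESeq2). Without WT 1, its highest WT library, Plvap was called (0.52, adjusted p = 0.0457). Over all genes, 272 had all mutants above all WT libraries and 220 had all below, 2.01% and 1.63%.

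HIF targets were mostly on the higher side. Of 55 listed genes 54 were measured, 1 was called higher (Eno2) and 0 lower. The fold change was above 0 for 46 of the 54 (85.2%, against 49.5% of all genes) and the median was 0.10 on the log2 scale. At an unadjusted p under 0.05, 17 were higher (31.5%, background 3.22%) and 2 lower (3.7%, background 3.12%), and 10 had every mutant above every WT library (background 2.01%). With any 1 library left out, 13 to 22 were higher at that p and 40 to 47 had a fold change above 0. The mean deviation of the 54 genes from their mean over the 8 libraries was 0.01, 0.09, 0.09 and 0.07 in the mutants on the log2 scale and −0.02, −0.11, −0.04 and −0.10 in WT. Mutant 1 was the lowest mutant, close to the highest WT library, and the groups did not overlap. This narrow gap depends on Eno2, the called member, and the other genes alone do not keep mutant 1 above WT 1. The summed level of the 54 genes did overlap, at 13080 to 13870 in the mutants and 12290 to 13450 in WT.

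Egln3, a prolyl hydroxylase that marks HIF for destruction and is itself a HIF target, was 71.6, 82.8, 86.8 and 99.0 in the mutants and 65.1, 67.7, 64.1 and 58.5 in WT. Its log2 fold change was 0.40 ± 0.09 (SE, adjusted p = 0.340, and 0.0107 by DESeq2). Jmjd6, an oxygen-dependent hydroxylase, was 49.4 to 56.4 in the mutants and 43.8 to 48.1 in WT (0.23, adjusted p = 0.604). All mutants lay above all WT libraries for both genes. Of the 9 measured genes of this class 7 had a fold change above 0.

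Bnip3, which promotes the removal of mitochondria by autophagy, was 208, 254, 231 and 207 in the mutants and 195, 177, 177 and 165 in WT. The groups did not overlap, and the log2 fold change was 0.33 ± 0.07 (SE, adjusted p = 0.345, and 0.0111 by DESeq2). Ndufa4l2, a mitochondrial protein induced by HIF, was 24.1 to 26.5 in the mutants and 20.8 to 23.5 in WT (0.16, adjusted p = 0.781). All 8 measured genes of the class for mitochondria and survival had a fold change above 0, with a median of 0.17. Vegfa, the main growth factor for vessels, was 171, 167, 207 and 161 in the mutants and 152, 136, 154 and 141 in WT. Each mutant exceeded each WT library, by a log2 fold change of 0.27 ± 0.07 (SE, adjusted p = 0.631). Of the 21 measured genes for glucose uptake and glycolysis 18 had a fold change above 0 (85.7%, against 49.5% of all genes), among them Eno2, and 8 were higher at an unadjusted p under 0.05 (38.1%, background 3.22%). The exceptions were Eno1, Gapdh and the glucose transporter Slc2a3 (−0.08, adjusted p = 0.924).

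**Figure D3:**
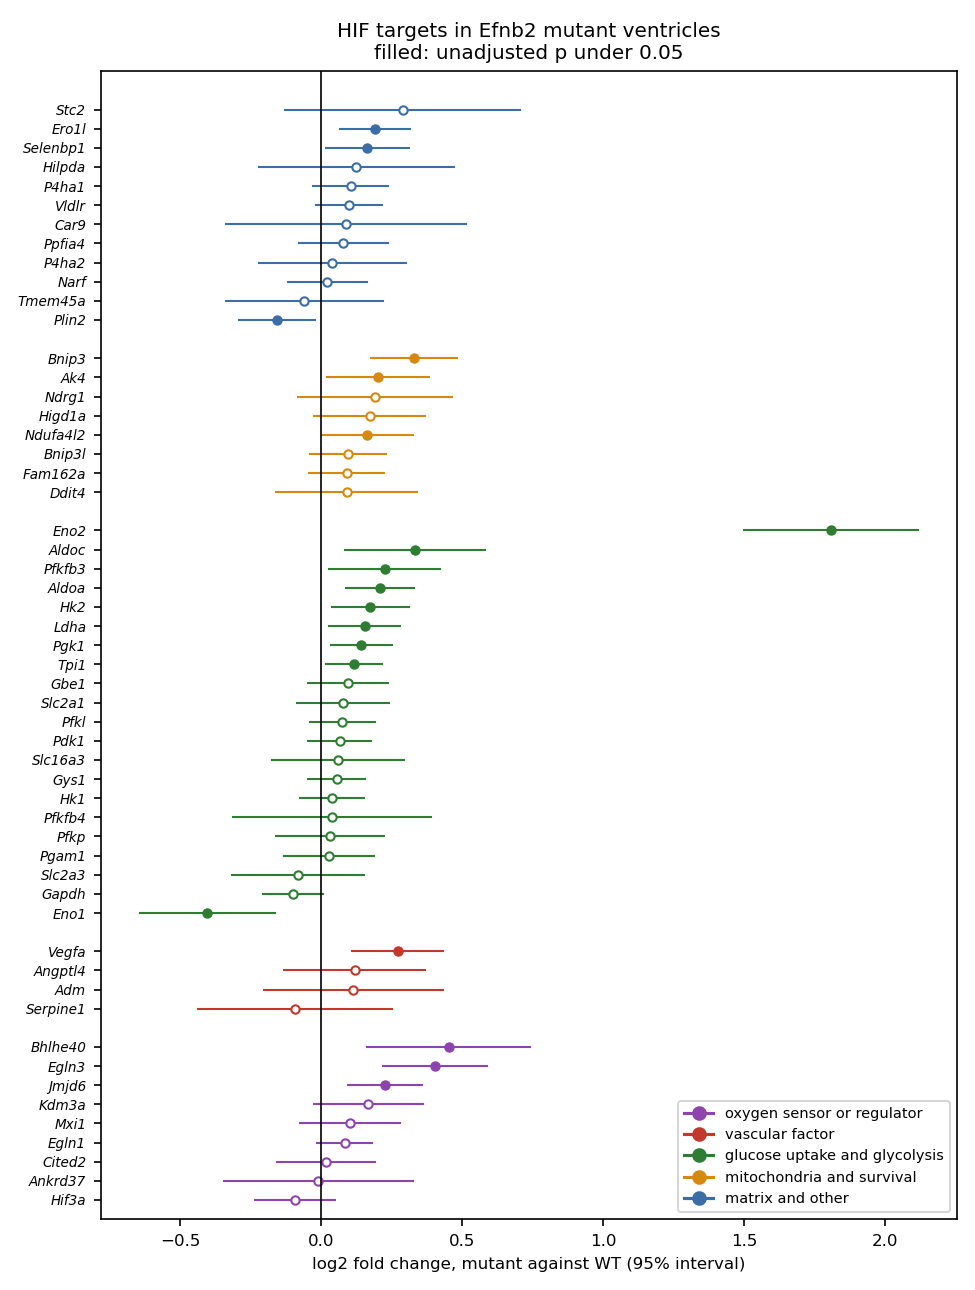
Log2 fold change, mutant against WT (horizontal axis), with its 95% interval for the 54 measured HIF targets (vertical axis, grouped and coloured by role), filled where the unadjusted p is under 0.05. Most points lie right of 0, 46 of 54, and Eno2 at 1.81 is far outside the range of the others, while Eno1 at −0.40 is the lowest.

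HIF binds short sites with the core letters ACGTG or GCGTG. The 300 bases around the start of Eno2, Egln3 and Bnip3 are shown because these are the HIF targets that led the list by p, and capitals mark each match on either strand. The sequences are RefSeq promoter windows on GRCm38.p6 that span the start, all on minus-strand genes, at chr6:124769624-124769923, chr12:54203825-54204124 and chr7:138909457-138909756.
Eno2: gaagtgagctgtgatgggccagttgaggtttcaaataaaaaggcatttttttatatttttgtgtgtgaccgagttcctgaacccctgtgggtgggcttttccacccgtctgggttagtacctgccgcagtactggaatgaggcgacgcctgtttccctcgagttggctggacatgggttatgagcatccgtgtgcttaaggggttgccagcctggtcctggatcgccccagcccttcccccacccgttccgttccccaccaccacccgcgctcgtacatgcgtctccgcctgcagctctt
Egln3: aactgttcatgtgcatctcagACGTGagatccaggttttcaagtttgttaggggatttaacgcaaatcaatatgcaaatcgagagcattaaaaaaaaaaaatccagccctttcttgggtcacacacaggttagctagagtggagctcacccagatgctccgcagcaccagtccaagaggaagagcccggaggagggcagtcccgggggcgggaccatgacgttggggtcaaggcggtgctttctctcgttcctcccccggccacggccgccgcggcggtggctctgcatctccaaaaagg
Bnip3: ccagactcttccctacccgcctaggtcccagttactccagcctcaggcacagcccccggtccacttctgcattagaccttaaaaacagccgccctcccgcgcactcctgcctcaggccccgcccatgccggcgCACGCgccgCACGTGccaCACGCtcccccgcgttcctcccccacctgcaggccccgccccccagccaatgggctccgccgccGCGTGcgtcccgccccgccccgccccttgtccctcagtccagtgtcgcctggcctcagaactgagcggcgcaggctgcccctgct
The Bnip3 window held 5 matches, of which 2 overlap on opposite strands in CACGTG, the Egln3 window held 1 and the Eno2 window 0. Windows were found for 46 of the 54 measured HIF targets, and 52 of their 66 windows (78.8%) held at least 1 match, beside 43.8% of all 32851 windows. These genes were listed because they are HIF targets, so their share of matches carries no information on the mutants. A match is a description of the letters and not a measured site.

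Cell cycle genes were mostly on the lower side. Of 36 measured genes 0 passed the test, 31 had a fold change below 0 (50.5% of all genes did), and the median was −0.11 on the log2 scale. At an unadjusted p under 0.05, 8 were lower (22.2%, background 3.12%) and 0 higher. Top2a, the topoisomerase of dividing cells, was 396, 398, 414 and 370 in the mutants and 469, 463, 402 and 450 in WT (−0.18 ± 0.06, SE, adjusted p = 0.684). WT 3 was as low as the mutants, and the groups overlapped. Mcm3, a subunit of the replicative helicase, was 75.8 to 90.5 in the mutants and 83.9 to 104 in WT (−0.22, adjusted p = 0.718), Uhrf1, which maintains DNA methylation at replication, 88.6 to 105 and 97.6 to 119 (−0.20, adjusted p = 0.731), and Aurkb, a mitotic kinase, 39.2 to 42.0 and 41.8 to 49.9 (−0.18, adjusted p = 0.748). The count of 8 was sensitive to single libraries: it was 2 without WT 1, 4 without mutant 2, mutant 4 or WT 5, 5 without WT 2, 6 without mutant 3, 13 without WT 3 and 14 without mutant 1. Mitochondrially encoded genes, which took 6.93% to 8.02% of the normalized total, had a fold change below 0 for 12 of 13 with a median of −0.11, and 0 passed at an unadjusted p under 0.05. Immediate early genes were on the other side, with 14 of 15 above 0 (93.3%, against 49.5% of all genes) and 6 higher at an unadjusted p under 0.05 (40%, background 3.22%). Myc, a growth regulator, was 30.6, 30.3, 30.3 and 31.9 in the mutants and 25.1, 24.9, 28.3 and 22.0 in WT, with no overlap (0.29, adjusted p = 0.631). Nr4a1, an orphan nuclear receptor, was 18.3 to 22.7 in the mutants and 15.4 to 17.3 in WT (0.29, adjusted p = 0.678). The 9 measured inflammatory genes, listed together with the immediate early genes, went both ways, with 5 above 0 (55.6%) and a median of 0.00. At an unadjusted p under 0.05, 0 of these 9 were higher and 1 lower (11.1%, background 3.12%). That gene was Sele, with all mutants below all WT libraries (−0.49, adjusted p = 0.718). Of 17 clock genes, which follow the hour of dissection as well as the tissue, 14 were above 0 (82.4%, against 49.5% of all genes). At an unadjusted p under 0.05, 2 of them were higher (11.8%, background 3.22%).

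**Figure D4:**
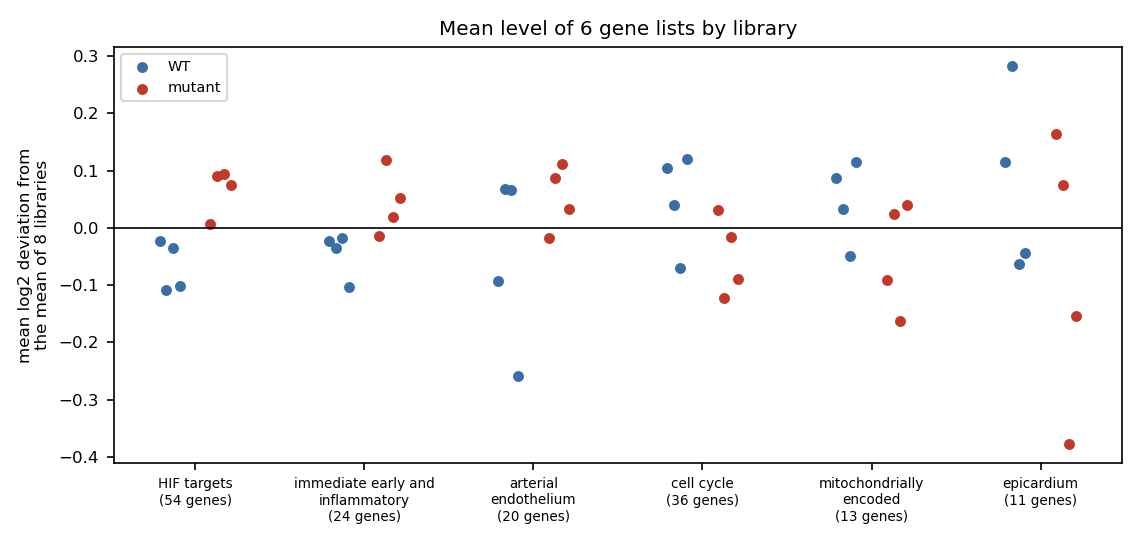
Mean log2 deviation from the mean of the 8 libraries (vertical axis) for 6 gene lists (horizontal axis, with the number of genes), 1 point per library, WT in blue and mutants in red. The groups are narrowly apart for HIF targets and for immediate early and inflammatory genes, and overlap for the cell cycle, mitochondrially encoded, arterial and epicardial genes. The gap for HIF targets depends on Eno2.

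In the Notch pathway Hey1, Rbpj, Notch4 and Dll4 had the smallest p, and none was called. Hey1, a repressor induced by Notch, was 18.5, 22.4, 28.7 and 21.0 in the mutants and 13.97, 19.2, 17.2 and 14.6 in WT. Mutant 1 was below WT 2, and the log2 fold change was 0.46 ± 0.13 (SE, adjusted p = 0.678). Hey2, a related repressor of compact myocardium, was 156 to 171 in the mutants and 162 to 176 in WT (−0.04, adjusted p = 0.918). Dll4, an arterial Notch ligand, was 26.7, 32.4, 29.7 and 26.0 in the mutants and 26.2, 24.3, 24.8 and 25.4 in WT (0.18, adjusted p = 0.781), and Notch4, an endothelial receptor, 44.2 to 52.2 and 41.1 to 45.0 (0.16, adjusted p = 0.768). Rbpj, the DNA-binding factor of the pathway, was 70.8 to 81.8 in the mutants and 82.4 to 88.6 in WT, without overlap (−0.16, adjusted p = 0.718). Notch1 was 78.8 to 105 in the mutants and 76.3 to 97.3 in WT (0.13, adjusted p = 0.869), and Notch3, the receptor of smooth muscle, 76.7 to 91.6 and 78.7 to 101 (−0.08, adjusted p = 0.901). Over the 28 measured genes of the pathway 19 had a fold change above 0 (67.9%, against 49.5% of all genes) with a median of 0.01. At an unadjusted p under 0.05, 3 were higher (10.7%, background 3.22%) and 1 lower (3.57%, background 3.12%).

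Of the 20 measured arterial genes, Efnb2 among them, 14 had a fold change above 0 (70%, against 49.5% of all genes) with a median of 0.14, and 0 were called. At an unadjusted p under 0.05, 3 were higher (15%, background 3.22%) and 1 lower (5%, background 3.12%). These shares were not particular to arterial genes. Of 24 pan-endothelial genes 17 were above 0 (70.8%, median 0.05), with 4 higher (16.7%) and 1 lower (4.17%) at that p. Of 9 endocardial genes 7 were above 0 (77.8%, median 0.02). The mean deviation of the arterial list was −0.02 to 0.11 on the log2 scale in the mutants and −0.26 to 0.07 in WT, lowest in WT 5, the library with the lowest WT level of Efnb2. Gja5, the connexin of arteries and trabeculae, was 80.0 to 94.1 in the mutants and 82.9 to 99.0 in WT (−0.03, adjusted p = 0.960). Acvrl1, a BMP receptor of arterial endothelium, was 24.9 to 33.9 in the mutants and 21.4 to 28.4 in WT (0.23, adjusted p = 0.781). Of 8 venous genes 5 were above 0 (median 0.03), and Emcn, a marker of endocardium, veins and capillaries, was 46.4 to 57.4 in the mutants and 43.0 to 51.8 in WT (0.08, adjusted p = 0.899).

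Among genes of capillaries and tip cells the differences went both ways. Apln, the peptide ligand made by sprouting endothelium, was 23.3, 24.0, 19.3 and 21.9 in the mutants and 26.3, 27.5, 29.1 and 28.7 in WT. All mutants were below all WT libraries (log2 fold change −0.33 ± 0.08, SE, adjusted p = 0.557). Its receptor Aplnr was 52.7 to 70.4 in the mutants and 60.2 to 85.9 in WT (−0.21, adjusted p = 0.824). Rgcc, a cell cycle regulator found in capillary endothelium, was 1.85, 2.08, 2.20 and 2.50 in the mutants and 3.89, 3.82, 3.11 and 3.64 in WT, also without overlap (−0.63 ± 0.17, SE, adjusted p = 0.604). Of the 17 genes of this list 9 had a fold change above 0. The summed level of 24 pan-endothelial genes was 2184 to 2394 in the mutants and 2190 to 2357 in WT, with overlapping groups. Within that list Icam2, an endothelial adhesion molecule, was 46.4 to 48.3 in the mutants and 40.0 to 42.2 in WT (0.20, adjusted p = 0.604). Rasip1, needed for vessel lumens, was 51.1 to 63.4 and 43.0 to 53.5 (0.25, adjusted p = 0.678), and Fli1, an endothelial transcription factor, 28.0 to 31.3 and 33.2 to 35.2 (−0.20, adjusted p = 0.710). The groups were apart for Icam2 and Fli1 and overlapped for Rasip1.

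Acta2, the smooth muscle actin that immature cardiomyocytes also make, was 1203, 969, 904 and 811 in the mutants and 1264, 973, 969 and 1221 in WT (−0.19, adjusted p = 0.831). Myh11, the myosin of mature smooth muscle, was 12.8, 5.06, 10.5 and 11.7 in the mutants and 12.2, 16.4, 20.5 and 12.1 in WT (−0.63 ± 0.25, SE, adjusted p = 0.748). Mutant 2 was the lowest, and mutant 1 lay among the WT libraries. Of 8 smooth muscle genes 6 had a fold change below 0, and of 11 pericyte genes 7 were above 0. Kcnj8, a potassium channel subunit of pericytes, was 24.0, 22.9, 26.8 and 25.5 in the mutants and 18.2, 21.5, 20.9 and 20.2 in WT, without overlap (0.29 ± 0.08, SE, adjusted p = 0.678).

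In the myocardium 0 genes of the lists were called. Nppb, the B-type natriuretic peptide, was 89.97, 119, 96.8 and 80.8 in the mutants and 74.96, 75.01, 79.0 and 69.6 in WT (0.36 ± 0.10, SE, adjusted p = 0.604). Bmp10, a growth factor of trabecular myocardium, was 28.5, 39.4, 35.1 and 28.9 in the mutants and 27.1, 26.0, 26.5 and 14.9 in WT (0.50 ± 0.17, SE, adjusted p = 0.718). Both were above the WT range in all 4 mutants, and WT 5 was far below the other WT libraries for Bmp10. Sln, a regulator of the calcium pump, was 13.4 to 19.6 in the mutants and 11.3 to 15.2 in WT (0.35, adjusted p = 0.718), and Myl7, the atrial myosin light chain, 222 to 280 and 211 to 220 (0.20, adjusted p = 0.684). Of 10 trabecular genes 6 were above 0 and 3 higher at an unadjusted p under 0.05 (30%, background 3.22%), and of 6 compact genes 2 were above 0. The 22 sarcomere genes had a median of 0.02. In TGF-beta and BMP signalling 5 of 27 genes were higher at an unadjusted p under 0.05 (18.5%, background 3.22%) and 0 lower, among them Bmp10, Id1 (0.33, adjusted p = 0.718), a direct BMP target, Tgfb1 (0.25, adjusted p = 0.730), and the endothelial co-receptor Eng (0.16, adjusted p = 0.744). The mean deviation of this list was 0.03, 0.12, 0.03 and −0.04 on the log2 scale in the mutants and −0.00, 0.09, 0.07 and −0.29 in WT. WT 5 stood apart, and WT 1, WT 2 and WT 3 lay among the mutants. Of 31 collagen and matrix genes 23 were below 0 and 8 above (25.8%, against 49.5% of all genes), with a median of −0.04. Col15a1 and Col14a1 were the only ones at an unadjusted p under 0.05 (6.45%, background 3.12% lower), at −0.16 and −0.22 (adjusted p = 0.748 and 0.768). The mean deviation of the collagen and matrix list was −0.06 to 0.01 in the mutants. In WT it was −0.325 to 0.19, lowest in WT 5, so that the mutants lay within the WT range.

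**Figure D5:**
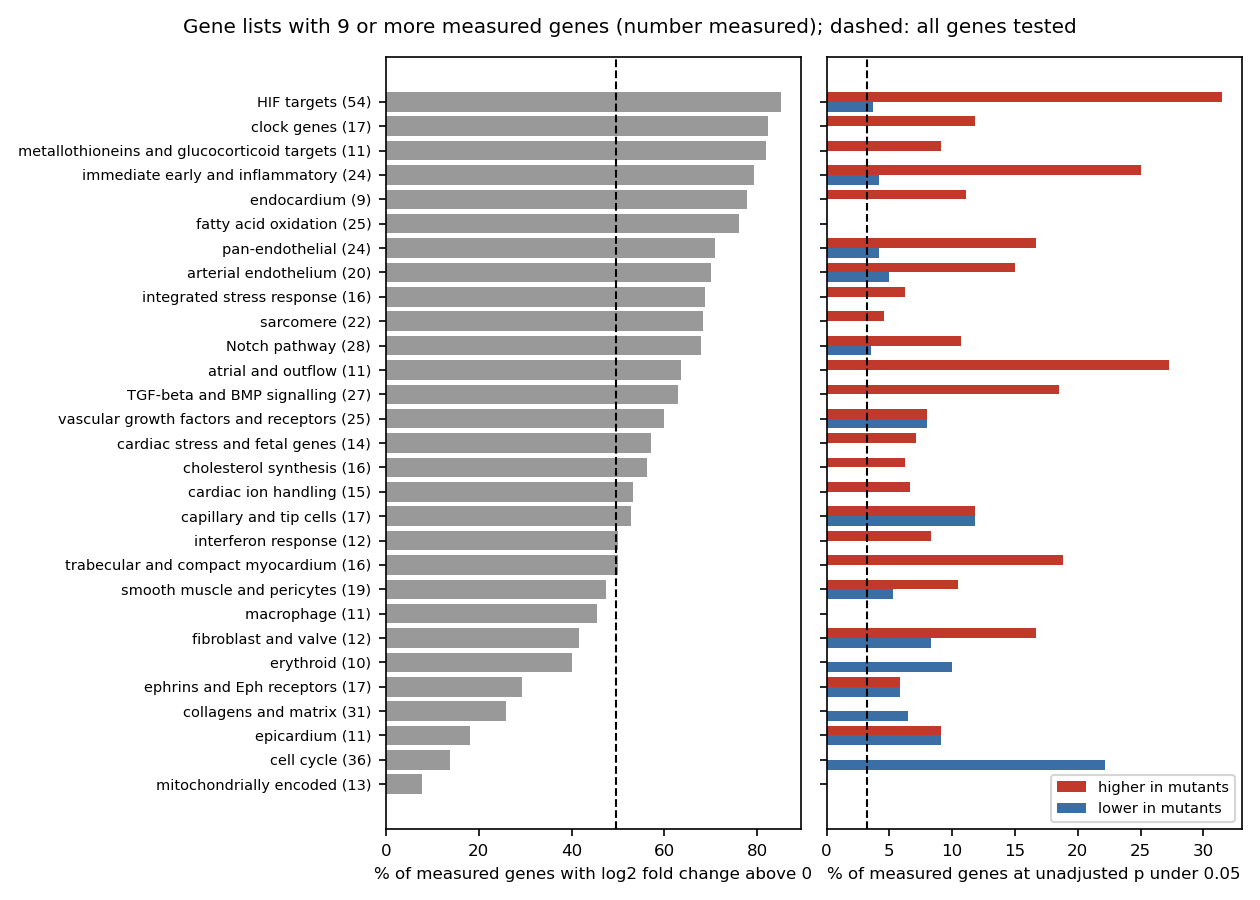
Each list with 9 or more measured genes (vertical axis, number measured in brackets), with the percentage of its genes whose log2 fold change is above 0 on the left and the percentage at an unadjusted p under 0.05 on the right (red higher, blue lower). Dashed lines give all genes, 49.5% above 0 and 3.22% higher, and HIF targets have the largest share above 0 on the left and the largest higher share on the right. Mitochondrially encoded genes have the smallest share above 0 (7.69%), and cell cycle genes the largest lower share on the right (22.2%).

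The cardiomyocyte, endothelial, endocardial, smooth muscle and pericyte markers checked were in the table, and those of liver and lung (Alb, Afp, Sftpc) were not among its genes, nor were 5 other markers of those organs and thymus. Atrial markers were also in the table, Myl7 at 211 to 280, Nppa at 373 to 649, Sln at 11.3 to 19.6 and Nr2f1 at 4.25 to 6.21 over the 8 libraries. Of 11 atrial and outflow genes 7 had a fold change above 0 (63.6%, against 49.5%) and 3 were higher at an unadjusted p under 0.05 (27.3%, background 3.22%), and the list includes Myl7, Sln and Bmp10. Their summed level was 1437 to 1604 in the mutants and 1345 to 1686 in WT, and the part of atrial tissue in the values of Myl7, Sln and Bmp10 was not tested. Summed over the 10 measured of 17 erythroid genes the level was 3093 to 7428 in the mutants and 4688 to 6785 in WT. The macrophage sum over 11 of 13 genes was 101 to 161 and 110 to 135, and the epicardial sum over 11 of 12 genes 168 to 227 and 190 to 230, and the groups overlapped in all 3. Of the 11 epicardial genes 9 had a fold change below 0. Y-linked genes were expressed in 2 mutant and 2 WT embryos and Xist in the other 2 of each group, and a term for this in the model left the same 4 calls. Of 46 genes starting within 5 Mb of Efnb2 and 33 within 5 Mb of Nfatc1, where floxed alleles and Cre lines can carry flanking sequence of another strain, 0 were called. With 0.0296% of all genes called, a count of 0 in such windows says little. At an unadjusted p under 0.05, 0 of the genes near Efnb2 were higher and 0 lower. Near Nfatc1, 2 were higher (6.06%, background 3.22%) and 4 lower (12.1%, background 3.12%).

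The mutant effect was then compared with those of 2 related experiments of the series by a test of the difference itself. In the first, Dll4 was removed from endothelium by a tamoxifen-induced Cdh5-Cre, with E15.5 ventricles pooled from 3 embryos (3 mutant and 4 WT libraries). In the second, Jag1 was removed with the same Nfatc1-Cre driver, with E12.5 hearts pooled from 4 embryos (4 and 4 libraries). Stage, pooling and table normalization differ between the experiments, so that only differences within a table were compared. The effect differed for 13 of 13394 shared genes against Dll4 loss (0.0971%) and for 16 of 13194 against Jag1 loss (0.121%). These counts were unstable: with 1 Efnb2 library left out they ranged from 4 (without mutant 4) to 23 (without mutant 2) and from 3 (without mutant 4) to 66 (without mutant 2), and both were 5 without the variance trend. The Dll4 count moved by more than 1.5 times when any 1 library other than WT 1 or WT 5 was left out (4, 5, 8 or 23), and the Jag1 count when any 1 of the 8 was left out (3 to 9, 29 without WT 5, or 66). The single-gene differences below are those with all libraries.

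Eno2 differed from Dll4 loss and not from Jag1 loss at the threshold. Its log2 fold change was 1.81 after Efnb2 loss and 0.07 after Dll4 loss (5.14 in mutants and 4.80 in WT), a difference of 1.74 ± 0.22 (SE, adjusted p = 0.00165). After Jag1 loss it was 0.80 (22.7 and 13.1), a difference of 1.01 ± 0.25 (SE, adjusted p = 0.0944). Apln went opposite ways, with −0.33 after Efnb2 loss and 0.63 after Dll4 loss (difference −0.96 ± 0.16, SE, adjusted p = 0.0307). Against Jag1 loss, where Apln was 0.54, the difference of −0.87 had an adjusted p of 0.0703. Plvap also went opposite ways, with 0.45 after Efnb2 loss and −0.42 after Jag1 loss (difference 0.87 ± 0.12, SE, adjusted p = 0.00635), while after Dll4 loss it was −0.02. The metallothioneins Mt2 and Mt1, which bind metals and respond to stress, were 0.40 and 0.12 after Efnb2 loss and 2.99 and 1.75 after Jag1 loss (adjusted p = 0.00796 and 0.033 for the differences).

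HIF targets were on the higher side in all 3 experiments. Over the 54 genes the median log2 fold change was 0.10 after Efnb2 loss, 0.32 after Dll4 loss and 0.44 after Jag1 loss, with 46, 48 and 51 genes above 0, and the difference between the medians was not tested. Of single genes, Eno2 alone differed from Dll4 loss and Pdk1, which limits pyruvate entry into mitochondria, from Jag1 loss (0.07 against 0.50, adjusted p = 0.033 for the difference). Vegfa was 0.27 here, 0.85 after Dll4 loss and 1.11 after Jag1 loss, and neither difference passed the test (adjusted p = 0.143 and 0.141). Cell cycle genes had medians of −0.11, −0.02 and −0.10 in the same order. Efnb2 itself was 0.06 after Dll4 loss and 0.08 after Jag1 loss, against −0.52 here (adjusted p = 0.116 and 0.0703 for the differences).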

How the data were processed

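Ventricular RNA of 8 single E16.5 embryos was sequenced. The authors trimmed reads with Cutadapt 1.6, estimated counts against the GRCm38 transcriptome with RSEM (1.2.3 in the labels) and deposited a normalized signal per gene in a separate table for each experiment. The deposited signal equals a whole number of reads plus 0.5, scaled to an adjusted library size (CPM). Whole reads, to within 0.01, came out for 100% of the values of the Efnb2 table, and edgeR called 4 genes on them. Symbols, coordinates and transcripts were taken from GENCODE M21 and promoters from RefSeq.

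Mutant and WT libraries were compared with limma 3.58.1 (trend) on log2(value + 0.5), which understates changes of low genes, with Benjamini-Hochberg adjustment over 13527 genes and a threshold of 0.05. A filter of 1 CPM in 4 libraries removed 0 genes. Effects were compared between experiments with an interaction term. Alternatives were other normalizations, filters, pseudocounts, thresholds, library weights, a replicate block, edgeR 4.0.16, DESeq2 1.42.0 and each library left out. limma voom was added after seeing the data. Scripts were tested on simulated data. Transcripts were aligned with blastn.

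The members, gene lists and tests were chosen with earlier results of these data known. Named genes were Efnb2, Nfatc1 and genes the study examined in these mutants, called genes whose groups did not overlap (without pseudogenes and numbered models), up to 4 genes of each list by p, and sex-linked genes. Further genes shown in figures, or named for their values, are outside this rule. Libraries are separate embryos, and litters are not given. Replicate numbers 1, 2 and 3 occur in both groups. The labels do not say whether these numbers pair the libraries, and the main test treated the libraries as unpaired. The 2 experiments on Dll4 gain and on endocardial Dll4 loss were not used here. A floor of 3 reads covers counting error only.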

Additional observations from a re-analysis of the deposited data

Results flagged for a closer look

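In 14 of 266 groups of 4 libraries examined for named genes, 1 library lay apart from the other 3, about the 1 in 20 that chance gives. In WT these were Bmp10 (14.9 in WT 5, others 26.0 to 27.1), Cryab (452 in WT 5, others 403 to 409), Myh6 (5212 in WT 5, others 3478 to 3579), Msln (28.8 in WT 2, others 20.2 to 21.1), Mt3 (12.4 in WT 2, others 13.3 to 13.4), Shmt2 (117 in WT 2, others 124 to 125), Myl7 (220 in WT 1, others 211 to 212), S100a9 (0.957 in WT 1, others 2.10 to 2.21) and Slc3a2 (35.4 in WT 1, others 39.6 to 40.2). In the mutants they were Clock (57.8 in mutant 2, others 48.1 to 49.6), Smtn (100.4 in mutant 2, others 118 to 120), Msln (11.9 in mutant 3, others 19.0 to 20.3), Nfatc1 (37.2 in mutant 4, others 31.2 to 32.2) and Pdpn (13.8 in mutant 1, others 9.22 to 9.75).

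The effect of Efnb2 loss differed from that of induced Dll4 loss for 13 genes by the limma interaction term. The difference in log2 fold change, Efnb2 minus Dll4, was 1.74 for Eno2, 1.53 for Gm3839, 0.94 for Tpgs1, 0.73 for the water channel Aqp4 and 0.38 for Vegfb. It was −0.975 for the potassium channel Kcna5, −0.96 for Apln, −0.88 for Mthfd2, −0.775 for the cyclin-dependent kinase inhibitor Cdkn1a, −0.45 for Cav1 and −0.38 for Cd34. For 2 other gene models it was 6.30 for Rps16-ps2 (0.05 after Efnb2 loss and −6.25 after Dll4 loss) and 5.53 for Gm2026.

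Against endocardial Jag1 loss the effect differed for 16 genes. The difference was 7.73 for Gm47854, whose mean level in the Jag1 table was 16.3 in mutants and 21.9 in WT, 0.87 for Plvap, 0.83 for Col23a1, 0.80 for Jag1 itself, 0.80 for Abi3 and 0.45 for Lsm4. It was −2.59 for Mt2, −1.72 for Znf41-ps, −1.63 for Mt1, −1.34 for Pkhd1l1, −0.925 for Pcdh17, −0.64 for Serpinb6b, −0.48 for Sphkap, −0.45 for C530008M17Rik, −0.44 for Pdk1 and −0.44 for Nadk2.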

How the results depend on the processing

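Of the 4 calls, Eno2 and Gm47854 were made in all 22 fits, Gm2574 in 21 and Gm3839 in 15, where the filter to the upper 75% of genes left the last 2 untested. Over the 140 named genes and 21 alternatives 0 called values changed sign, 6 calls were lost, all of Gm3839, and 12 gained. The number of genes higher was 2 among the upper 75% of genes by mean and 16 by DESeq2, and the number lower was 1 with the replicate block, 9 by DESeq2 and 1 by limma voom, against 4 and 0. Leaving out 1 library gave 3 to 7 higher and 0 to 6 lower, the most without mutant 2. Efnb2 was called by DESeq2 alone (−0.54), at −0.61 to −0.43 with a library left out. Gm3839 lost its call with the replicate block (1.33, adjusted p = 0.251) and ranged from 1.38 to 1.61 with a library left out. The deviations of same-numbered mutant and WT libraries from their group means correlated at 0.155, 0.0148 and −0.0486, and the block kept 3 of the 4 calls among 6. Differences against Dll4 loss numbered 5 without the variance trend and 4 to 23 with an Efnb2 library left out, and against Jag1 loss 5 and 3 to 66, highest without mutant 2 in both and second highest for Jag1 without WT 5 (29). HIF targets higher at an unadjusted p under 0.05 numbered 13 to 22, and cell cycle genes lower 2 to 14, with a library left out. The cause of these shifts was not tested.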

Other observations

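Chromosome 4 held more of the differences than its share of genes, a pattern noticed after the values were seen. Of its 853 genes 82 had an unadjusted p under 0.05 (9.61%, against 6.34% of the table) and 58 had groups without overlap (6.80%, against 3.64%). In several of these genes mutant 2 lay nearer to WT than the other mutants. Grik3, a kainate receptor subunit on chromosome 4, was 34.1, 5.77, 25.0 and 23.5 in the mutants and 3.64, 3.18, 3.93 and 3.64 in WT. Without mutant 2, 13 genes were called, 9 of them not called with all 8 libraries, and 6 of the 13 lie on chromosome 4: Grik3 was higher (2.76), and Eno1 (−0.55), Hmgn2 (−0.37), Zfp992 (−0.94), Zfp984 (−1.07) and Znf41-ps (−1.60) were lower. Litter and strain background are not in the labels, so their part could not be tested.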
